A study of Sus scrofa with 8 samples.

Results

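Fibroblast growth factor (FGF) receptors and ligands were examined in the chromatin of pig embryonic fibroblasts (PEFs). The set held 9 genes, taken by symbol from the RefSeq annotation of Sscrofa11.1, of 28077 genes on chromosomes 1 to 18 and X, 19487 of them protein-coding. They were the 4 receptor genes FGFR1, FGFR2, FGFR3 and FGFR4, the 3 mesenchymal ligand genes FGF2, FGF7 and FGF10, and the 2 early developmental ligand genes FGF4 and FGF8. All 9 were found in the annotation. For each gene, peaks were counted within 1 kb of the annotated start, in the gene body, and outside the gene within 100 kb of either end.

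The study profiled H3K4me3, a histone mark of promoters, H3K27ac, a mark of active promoters and enhancers, and CTCF, a protein that binds DNA at insulators and chromatin loop ends, by ChIP-seq, with 2 replicate libraries for each of the 3 antibodies. All 6 libraries came from PEFs of Large White pigs. The cells were isolated by collagenase digestion from fetuses at 35 days and grown for 24 h in DMEM with 15% fetal bovine serum, and no treatment, transgene or mutation is named. The labels do not say whether replicates came from separate fetuses or cultures, so the spread between them may be technical.

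FGFs are secreted ligands that bind receptor tyrosine kinases with heparan sulfate as a cofactor and signal through adaptor proteins, RAS and MAP kinases. FGF7 and FGF10 are made by mesenchyme and act on the FGFR2 form of neighbouring epithelium, whereas FGF2 is made by fibroblasts and acts on them as well. FGF4 and FGF8 act in the early embryo and in the limb and other signalling centres.

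The values are those of the authors' peak lists. Each peak has a fold enrichment over the control library, a ratio, and a −log10 q-value. The libraries held 37932 and 43516 peaks for H3K4me3, 74983 and 81164 for H3K27ac, and 40289 and 44682 for CTCF. The median fold enrichment was 9.19 in replicate 1 and 6.15 in replicate 2 of H3K4me3, so fold enrichments of that mark were compared between genes within a library. It was 4.84 and 4.75 for H3K27ac, and 19.7 and 19.2 for CTCF. The share of a library's peaks that were also met by the paired replicate ranged from 77.2% to 95.9%. The lists hold no read counts, so the depth behind a peak is unknown, and a gene without a peak is a gene where none was called. In such a bulk sample, fewer cells carrying a mark and less of it per cell cannot be told apart. ChIP-seq carries no strand, so peaks inside overlapping genes belong to either gene. With a single cell type and 2 libraries per antibody, no test between groups was made, since an exact two-sided permutation test of 2 against 2 libraries cannot go below p = 0.333. Of 12 fibroblast marker genes, among them COL1A1, VIM, THY1 and PDGFRA, 12 carried both histone marks at the start in both replicates. Both marks together were found at 1 of 6 epithelial markers (CLDN4) and at 0 of 5 endothelial, 0 of 5 blood, 0 of 6 muscle and neural and 0 of 6 pluripotency gene entries. The share was 47% of all and 58.9% of protein-coding genes. Besides CLDN4, H3K4me3 was called in both replicates at EPCAM, CDH1, KRT8, KRT18, KDR, CLDN5, MYOD1, MYF5, NEUROD1, SOX2 and LIN28A. H3K27ac without H3K4me3 was called in both replicates at SPI1 (12.4 and 17.0) and MYOG (7.06 and 5.26).

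Around the ligand genes, the sequences before the start differed in composition, and those of FGF7 and FGF8 are shown because these genes were furthest apart in H3K4me3 width among the ligands with a strong H3K4me3 peak. Each is the 250 bases before the annotated start on the gene's minus strand, 5′ to 3′, from the RefSeq Sscrofa11.1 genome (FGF7, chr1:122278706-122278955; FGF8, chr14:112814226-112814475). Capitals mark TATAA and GGGCGG on either strand, with overlapping matches joined.
FGF7: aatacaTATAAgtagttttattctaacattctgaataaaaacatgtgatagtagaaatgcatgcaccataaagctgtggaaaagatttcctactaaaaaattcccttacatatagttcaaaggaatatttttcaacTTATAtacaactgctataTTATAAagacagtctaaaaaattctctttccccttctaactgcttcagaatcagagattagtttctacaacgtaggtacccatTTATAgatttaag
FGF8: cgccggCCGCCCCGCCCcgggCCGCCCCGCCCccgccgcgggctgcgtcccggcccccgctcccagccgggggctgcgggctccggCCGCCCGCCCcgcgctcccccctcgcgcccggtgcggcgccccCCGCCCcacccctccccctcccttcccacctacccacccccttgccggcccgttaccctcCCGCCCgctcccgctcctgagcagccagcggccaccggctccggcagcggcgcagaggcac

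The FGF7 sequence held 5 TATAA matches and no GGGCGG, and 28.8% of its bases were G or C. The FGF8 sequence held 8 GGGCGG matches and no TATAA, and 85.6% of its bases were G or C. TATAA occurred in this window at 17.1% and GGGCGG at 46.0% of protein-coding genes. The observed over expected CpG ratio was 0.198 for FGF7, 0.281 for FGF10, 0.515 for FGF2, 0.90 for FGF8 and 0.974 for FGF4, against a median of 0.617 over protein-coding genes. Among protein-coding genes with both histone marks at the start in both replicates the median was 0.762, and 493 of 11476, or 4.30%, had a ratio at or under that of FGF7. The 3 mesenchymal ligands lay below the median and both early ligands above it. The gene models of FGF2 and FGF4 begin at the coding start, so their windows are not certain to be promoters. The same holds for FGF10, whose H3K4me3 peak began 1.14 and 0.94 kb inside the gene. It also holds for FGFR2, whose main H3K4me3 region lay from −5.34 to −1.42 kb. Among the receptors, the ratio was 0.859 for FGFR1, 0.903 for FGFR3, 0.550 for FGFR2 and 0.534 for FGFR4.

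At the start of the 9 genes, H3K4me3 was called in both replicates at 7, against 55.4% of all genes and 68.9% of protein-coding genes. H3K27ac was called in both at 5, against 50.1% and 60.7%, and CTCF at 3, against 15.2% and 17.9%. The share of H3K27ac was close to these backgrounds, and the shares of the other antibodies were not tested. Counted by summit rather than by any overlap, H3K4me3 was at 5 starts, without FGF2 and FGF7. By the same rule H3K27ac was at 3 starts, without FGFR2 and FGF7, and CTCF at 1, that of FGFR4. Both histone marks were present in both replicates at FGFR1, FGFR3, FGF2 and FGF7, 4 genes against 47% of all and 58.9% of protein-coding genes. H3K4me3 in both and H3K27ac in neither replicate occurred at FGFR4, FGF4 and FGF8, 3 genes against 6.89% of all and 8.25% of protein-coding genes. Within 5 kb of the start, H3K4me3 was present in both replicates at 9 (62.6% of all and 74.7% of protein-coding genes), H3K27ac at 6 (58.2% and 66.9%) and CTCF at 5 (31.4% and 35%). FGFR2 and FGF10 were the genes whose H3K4me3 call depended on the window.

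**Figure D1:**
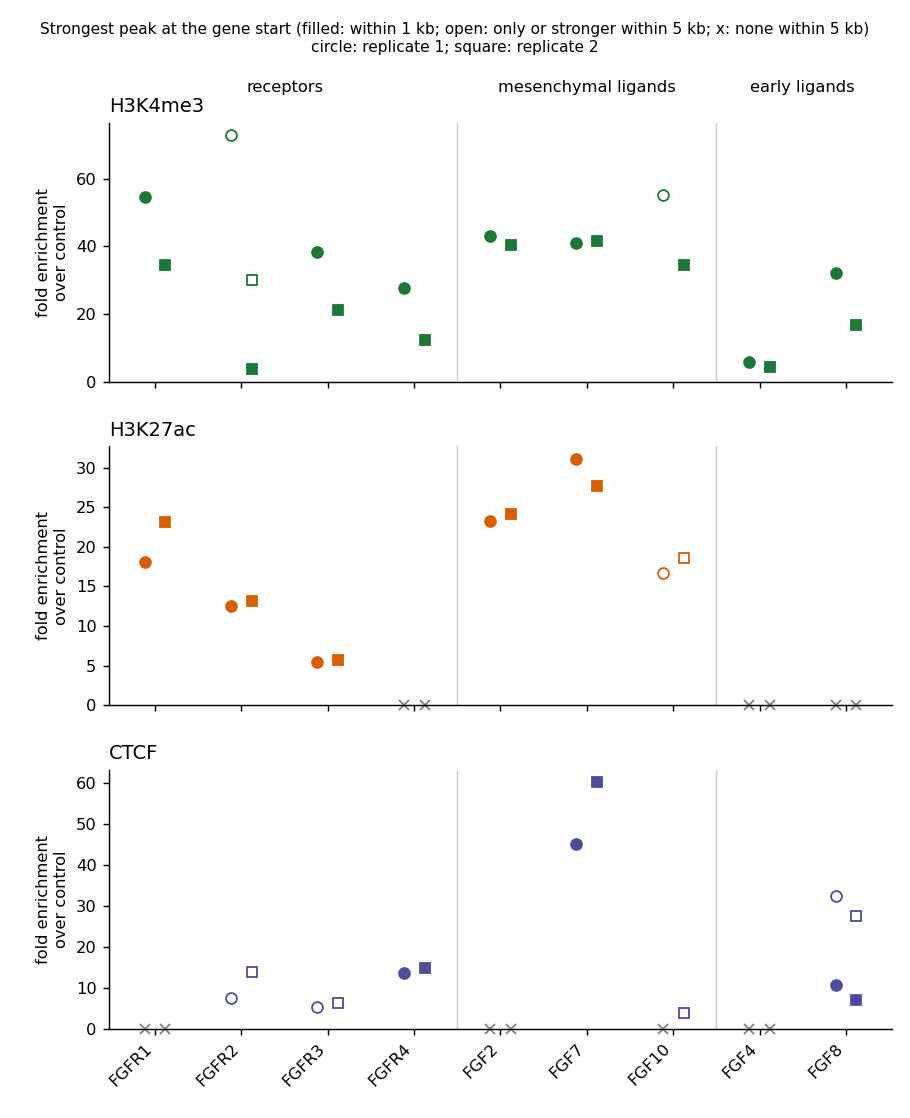
Fold enrichment of the strongest peak at the start of each gene, on linear axes, for H3K4me3, H3K27ac and CTCF in replicate 1 (circles) and replicate 2 (squares); filled symbols are within 1 kb, open symbols were found only, or were stronger, within 5 kb, and crosses mark no peak within 5 kb. H3K27ac was called within 5 kb at every gene except FGFR4, FGF4 and FGF8, and the lowest H3K4me3 values were those of FGF4, apart from a small FGFR2 peak within 1 kb.

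FGFR1, the receptor best known from mesenchyme, is on chromosome 15 (48053895 to 48106634, plus strand). Its H3K4me3 peak had a fold enrichment of 54.7 in replicate 1 and 34.4 in replicate 2 and was 4.66 and 4.75 kb wide. Its H3K27ac peak reached 18.1 and 23.1 and was 5.03 and 4.95 kb wide. Both marks thus lay over the annotated start and the adjoining gene body in each library. No CTCF peak was called within 5 kb of the start.

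FGFR2, whose forms are used by epithelium and mesenchyme, is on chromosome 14 (131183095 to 131285001, minus strand), and its RefSeq model is marked partial. Within 1 kb of the annotated start, H3K4me3 was absent in replicate 1 and reached 3.70 in replicate 2. The main H3K4me3 region lay upstream, from −5.34 to −1.42 kb, with 73.1 in replicate 1 and 30.1 in replicate 2. In replicate 1 this was the highest H3K4me3 value of the 9 genes, at percentile 90.6 of genes with a peak within 5 kb. H3K27ac covered −4.50 to −0.19 kb, with 12.6 and 13.2. The coding sequence begins 47 bases after the annotated start, in an exon of 156 bases, so that the marks preceded the annotated gene rather than covering it. A CTCF peak of 7.51 and 13.8 lay inside the H3K4me3 region.

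FGFR3, a receptor with a known part in cartilage growth, is on chromosome 8 (879151 to 894968, plus strand). It has 11 annotated transcripts with 8 starts that lie within 1147 bases. Its H3K4me3 peak had a fold enrichment of 38.2 and 21.2. H3K27ac was called in both replicates but was low, at 5.41 and 5.74, near percentile 10.2 and 10.7 of genes with a peak at the start. Of the 6 genes with H3K27ac within 5 kb of the start, FGFR3 had the lowest value in both replicates.

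FGFR4, a receptor of liver and developing muscle, is on chromosome 2 (80841536 to 80853791, minus strand). H3K4me3 was called with 27.9 and 12.3 over 1.31 and 1.47 kb, and H3K27ac was not called within 5 kb in either replicate. A CTCF peak of 13.6 and 14.9 had its summit 267 and 251 bases after the start, in the intron that follows an exon of 171 bases and precedes the coding start. Of the 4 receptors it was the only one with CTCF within 1 kb in both replicates.

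The CTCF sites near FGFR2 and FGFR4 are shown because they lay within 5 kb of a receptor start and held the AGGNGGC core of the CTCF motif. Each line gives the 101 bases around the replicate 1 summit on the gene's minus strand, 5′ to 3′, in Sscrofa11.1 (FGFR2, chr14:131288321-131288421; FGFR4, chr2:80853474-80853574), with the core in capitals. The FGFR2 window overlaps no annotated exon.
FGFR2: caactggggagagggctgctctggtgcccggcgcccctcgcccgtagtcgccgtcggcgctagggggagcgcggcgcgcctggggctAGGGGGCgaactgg
FGFR4: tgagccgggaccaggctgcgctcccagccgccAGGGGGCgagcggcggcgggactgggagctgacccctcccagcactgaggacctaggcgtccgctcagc

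Both cores read along the direction of the gene. The core, searched on both strands, occurred in 34.1% of such windows at all 37874 shared CTCF regions (peaks of both replicates joined by overlap) and in 6.06% of windows 1 kb away. Within 100 kb of the 9 genes it was found at 15 of 39 shared CTCF regions. A match is a description of the letters and not of binding. The strong CTCF site at the FGF7 start held no such core.

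FGF2, a ligand of fibroblasts and endothelium, is on chromosome 8 (101278877 to 101344084, minus strand) and overlaps NUDT6 and LOC110261982. Its H3K4me3 peak had a fold enrichment of 43.2 and 40.4 and a width of 7.56 and 10.8 kb. H3K27ac at the start reached 23.3 and 24.2. The H3K4me3 height stood at percentile 36.7 of genes with a peak in replicate 1 and 95.6 in replicate 2, so its standing differed between libraries. The H3K4me3 peak reached from just before the start to 6.80 kb inside the gene in replicate 1 and to 9.94 kb in replicate 2.

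FGF2 also had strong H3K27ac upstream. One shared region from −29.8 to −20.3 kb had a fold enrichment of 39.1 and 26.6, and another from −39.8 to −34.6 kb had 35.6 and 29.6. In both replicates these exceeded the H3K27ac peak at the FGF2 start. Their mean fold enrichments stood at percentiles 98.0 and 97.9 of the 61478 shared H3K27ac regions. No shared CTCF site lay between either of them and the FGF2 start, and FGF2 was their nearest protein-coding start. The nearest shared CTCF sites were 65.5 kb upstream and 94.2 kb downstream of the start, an interval of 159.8 kb.

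FGF7, keratinocyte growth factor, is on chromosome 1 (122215878 to 122278705, minus strand) and overlaps FAM227B. At its start, H3K4me3 had a fold enrichment of 41.1 in replicate 1 and 41.6 in replicate 2. That peak was 14.8 kb wide in replicate 1, the rank 16 among all H3K4me3 peaks of that library, and 24.2 kb wide in replicate 2, the rank 4. The start thus lay in one of the widest H3K4me3 peaks of each library, while its height stood at percentile 33.6 in replicate 1 and 96.6 in replicate 2 of genes with a peak. H3K27ac at the start reached 31.1 and 27.7 over 13.9 and 14.03 kb. The FGF7 value was the highest H3K27ac value of the 9 genes in both replicates.

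H3K27ac of FGF7 ran on through the gene, and H3K4me3 ended within 44.6 kb of the start. H3K27ac peaks covered 90.5% of the gene body in replicate 1 and 83.6% in replicate 2, and H3K4me3 peaks covered 38.1% and 66.9%. Among 5514 protein-coding genes of at least 50 kb, a limit chosen after the values were seen, FGF7 had the highest mean cover by H3K4me3, at 52.5%, and the rank 4 by H3K27ac, at 87.0%. The medians of those genes were 2.73% and 4.21%. Of the 9 genes, FGF4, which is 1.90 kb long, had a higher mean H3K4me3 cover than FGF7, at 57.0%. Among all protein-coding genes, FGF7 stood at percentile 93.2 for H3K4me3 cover and 97.1 for H3K27ac cover. Cover in the body was nonetheless of low height, since the 9 shared H3K27ac regions in the body beyond the start region had fold enrichments between 2.04 and 10.1. A CTCF peak of 45.1 and 60.3 with its summit 1.02 kb upstream stood at the upstream edge of this domain, and the next shared site on the gene side was 382.4 kb from the start.

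FGF10, the mesenchymal ligand that drives limb and lung budding, is on chromosome 16 (28695465 to 28779953, minus strand) and overlaps LOC102161640. H3K4me3 within 1 kb of the annotated start was absent in replicate 1 and present in replicate 2. The difference was one of position, because the peak began 1.14 kb inside the gene in replicate 1 and 0.94 kb in replicate 2. Its fold enrichment was 55.2 and 34.4, and its width 6.15 and 6.64 kb. H3K27ac began about 1.4 kb inside the gene with 16.7 and 18.6. Both peaks ran past the end of a first exon of 3390 bases, in which coding begins 3056 bases after the annotated start. Further H3K27ac regions followed in the body, with 15.3 and 13.6 at 23.1 to 25.8 kb and with 10.2 and 10.4 at 72.8 to 74.4 kb.

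FGF4, an early embryonic ligand, is on chromosome 2 (3527113 to 3529011, plus strand) between FGF3 and FGF19. Its H3K4me3 peak had a fold enrichment of 5.74 and 4.44, the lowest of the 9 genes in both replicates among the strongest peaks within 5 kb, and stood at percentiles 3.28 and 3.15 of genes with a peak within 1 kb. H3K27ac and CTCF were not called within 5 kb in either replicate. The nearest shared CTCF sites were 18.3 kb upstream and 53.1 kb downstream. The 3 shared H3K27ac regions that reached within 100 kb of FGF4 had FGF19, ORAOV1 and CCND1 as their nearest protein-coding starts, with at least 2 CTCF sites between each of them and FGF4.

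FGF8, a ligand of embryonic signalling centres, is on chromosome 14 (112808215 to 112814225, minus strand). Its H3K4me3 peak had a fold enrichment of 32.2 and 16.8 and was 1.70 kb wide in both replicates. No H3K27ac peak was called within 5 kb. A CTCF peak of 10.6 and 7.01, with its summit 1.22 kb upstream, reached into the 1 kb window. A stronger peak, reaching 32.6 and 27.7, lay further upstream. The nearest H3K27ac region, from −8.41 to −5.85 kb, lay at the start of the neighbouring gene NPM3, and 2 shared CTCF sites lay between it and the FGF8 start.

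In H3K4me3 width the 3 mesenchymal ligands and the 2 early ligands did not overlap in any library. The strongest peak within 5 kb was between 6.15 and 24.2 kb wide at FGF2, FGF7 and FGF10 and between 1.23 and 1.71 kb at FGF4 and FGF8. The gap between the narrowest of the former and the widest of the latter was 4.44 kb. All 3 mesenchymal ligands were wider than 5 kb in both replicates, a limit chosen after the values were seen, against 6.14% of all and 7.4% of protein-coding genes, and FGFR1 came next of the 9 genes at 4.66 and 4.75 kb. The width was not limited to these ligands, since FGF9 (7.05 and 6.85 kb) and FGF11 (6.44 and 6.24 kb), of the other FGF genes, also passed it. H3K27ac was called within 5 kb in both replicates at all 3 mesenchymal and at neither early ligand, against 58.2% of all and 66.9% of protein-coding genes. In fold enrichment of H3K4me3 the separation was smaller, with FGF8 at 32.2 in replicate 1 against 41.1 for FGF7. Gene length separated the same groups, at 62.8 to 84.5 kb for the mesenchymal ligands against 1.90 kb for FGF4 and 6.01 kb for FGF8. Width and gene length cannot be told apart in this comparison. With 3 genes against 2, and genes not being replicates, the difference was not tested.

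**Figure D2:**
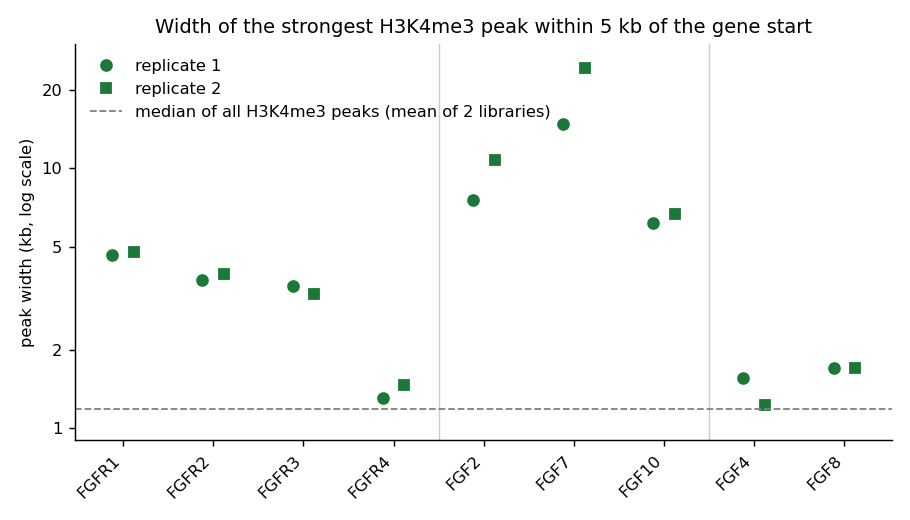
Width in kb, on a log scale, of the strongest H3K4me3 peak within 5 kb of each gene start in replicate 1 (circles) and replicate 2 (squares); the dashed line is the median width of all H3K4me3 peaks, averaged over both libraries. FGF7 was widest in both replicates, and FGFR4, FGF4 and FGF8 lay near the dashed line.

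The order of H3K4me3 fold enrichment changed between replicates at the top and not at the bottom. In replicate 1 FGFR2 was highest, at 73.1, and in replicate 2 FGF7 was highest, at 41.6. In both replicates the 4 lowest genes were FGFR3, FGF8, FGFR4 and FGF4, in that falling order. For H3K27ac within 5 kb the mean was 29.4 ± 2.46 (SD, n = 2) at FGF7, 23.7 ± 0.611 at FGF2, 20.6 ± 3.55 at FGFR1, 17.6 ± 1.3 at FGF10, 12.9 ± 0.416 at FGFR2 and 5.57 ± 0.231 at FGFR3. The replicate values of FGFR1 and FGF10 overlapped, and those of FGF2 and FGFR1 were only just apart.

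**Figure D3:**
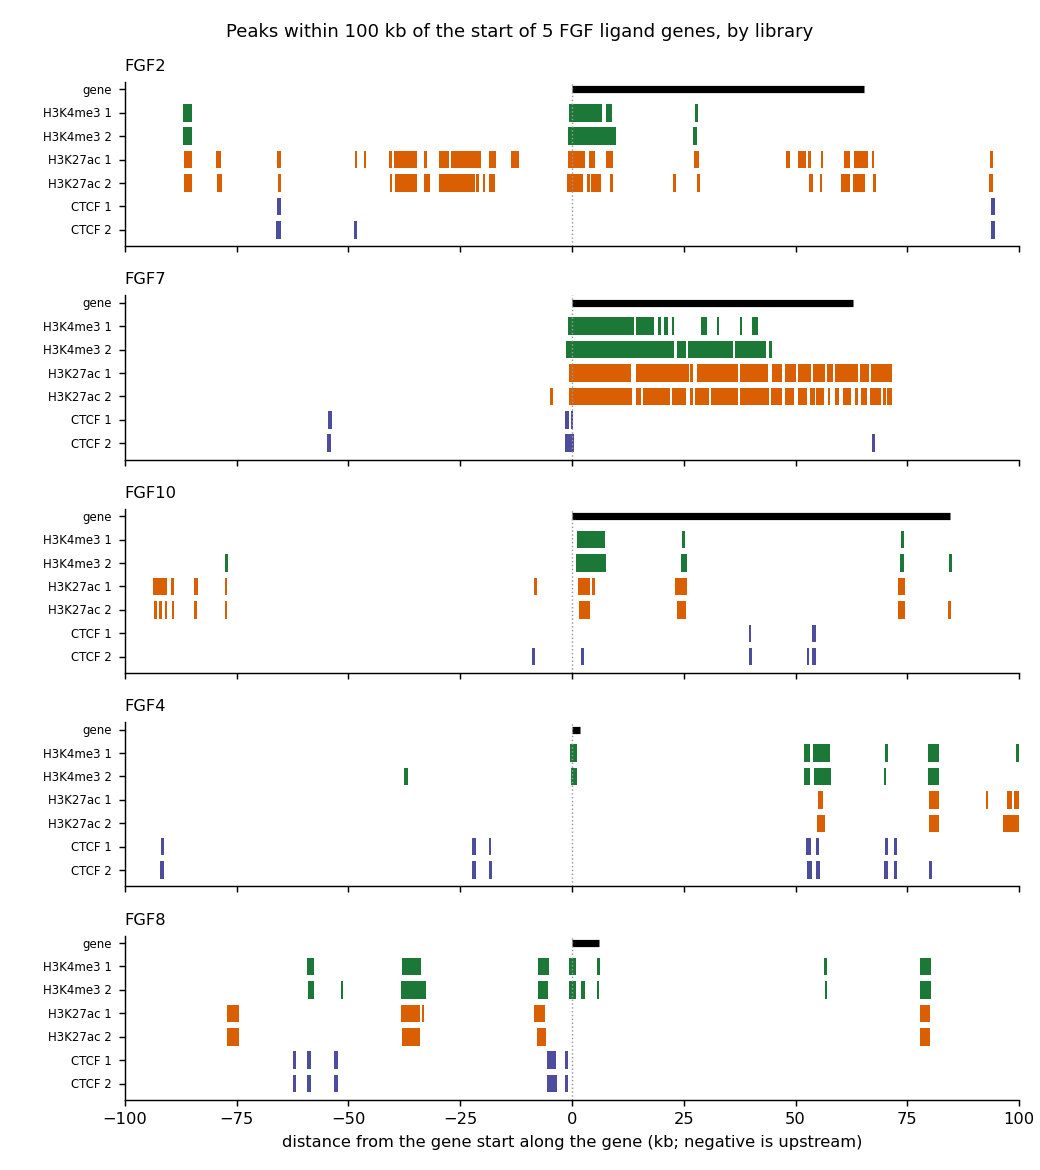
Peaks of each of the 6 libraries within 100 kb of the start of FGF2, FGF7, FGF10, FGF4 and FGF8, by distance from the start along the gene in kb; black bars are the genes, coloured bars the H3K4me3 (green), H3K27ac (orange) and CTCF (blue) peaks, drawn at least 0.6 kb wide. H3K27ac ran through the FGF7 gene and H3K4me3 through its first part, FGF2 had H3K27ac upstream of its start, and FGF4 and FGF8 had H3K4me3 without H3K27ac at the start.

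In the gene body beyond 1 kb from the start, H3K27ac summits were found in both replicates at FGFR1, FGFR2, FGF2, FGF7 and FGF10, 5 genes against 37% of all and 43.9% of protein-coding genes. The number was 11 and 16 at FGF7, 8 and 8 at FGF2, 4 and 3 at FGF10, 2 and 3 at FGFR1, and 1 and 1 at FGFR2. FGFR3, FGFR4, FGF4 and FGF8 had 0 in both replicates, and these are the shortest of the 9 genes, at 1.90 to 15.8 kb against 52.7 kb or more for the others. In the distal part of the FGF2 body, the 3 shared regions from 52.8 to 62.2 kb lay nearer to the start of NUDT6. H3K4me3 in the body was found in both replicates at 6 genes (28% of all and 33.3% of protein-coding genes) and CTCF at FGFR2, FGFR3 and FGF10 (35.9% and 42.8%). The CTCF peaks in FGFR2 were at different places, 34.3 kb in replicate 1 and 52.0 kb in replicate 2, and no shared site lay in its body.

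Outside the genes, H3K27ac peaks lay within 100 kb of all 9 in both replicates, as for 89.5% of all and 91.5% of protein-coding genes. FGFR3 had the most, 23 and 24, at percentile 96.4 of protein-coding genes. FGF2 had 18 and 16, FGFR1 had 16 and 18, FGFR4 had 8 and 9, and FGF7 had 7 and 12. FGF10 had 6 and 8, FGF8 had 5 and 4, FGFR2 had 4 and 4, and FGF4 had 4 and 2, all below the median of 8.5 over protein-coding genes. FGFR3 thus had the most flanking peaks and the lowest H3K27ac of the marked starts. H3K4me3 lay within 100 kb of 8 genes in both replicates (88.7% of all and 91.1% of protein-coding genes), all but FGF10, and CTCF of 8 (93.5% and 95.1%), again all but FGF10.

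Most of the shared H3K27ac regions around some genes were nearer to other genes. Here a region counted if any of it reached within 100 kb, also where its summit lay beyond, as at CCND1 near FGF4. Of the 21 shared H3K27ac regions around FGFR3, 2 had FGFR3 as the nearest protein-coding start and no shared CTCF site between. The same was true of 11 of 17 regions at FGF7, 8 of 20 at FGF2, 6 of 8 at FGF10, 3 of 16 at FGFR1 and 3 of 4 at FGFR2, gene body included and regions at the 1 kb start window left out. For FGF10 the count includes the region at 1.43 to 4.10 kb. It was true of 0 of 7 at FGFR4, 0 of 3 at FGF4 and 0 of 4 at FGF8. The 3 genes without H3K27ac within 5 kb of the start also had no such region within 100 kb. At FGFR4 this was nearly set by the rule. Its nearest shared CTCF sites lay 14.9 kb upstream and 0.26 kb downstream of the start, and no region beyond them could count. At FGF8 a shared CTCF site 1.22 kb upstream likewise left out any region further upstream. These counts depend on how close other genes and CTCF sites lie. No share over all genes is given for them, so the match between the 3 genes was not tested. Contact between regions was not measured here.

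**Figure D4:**
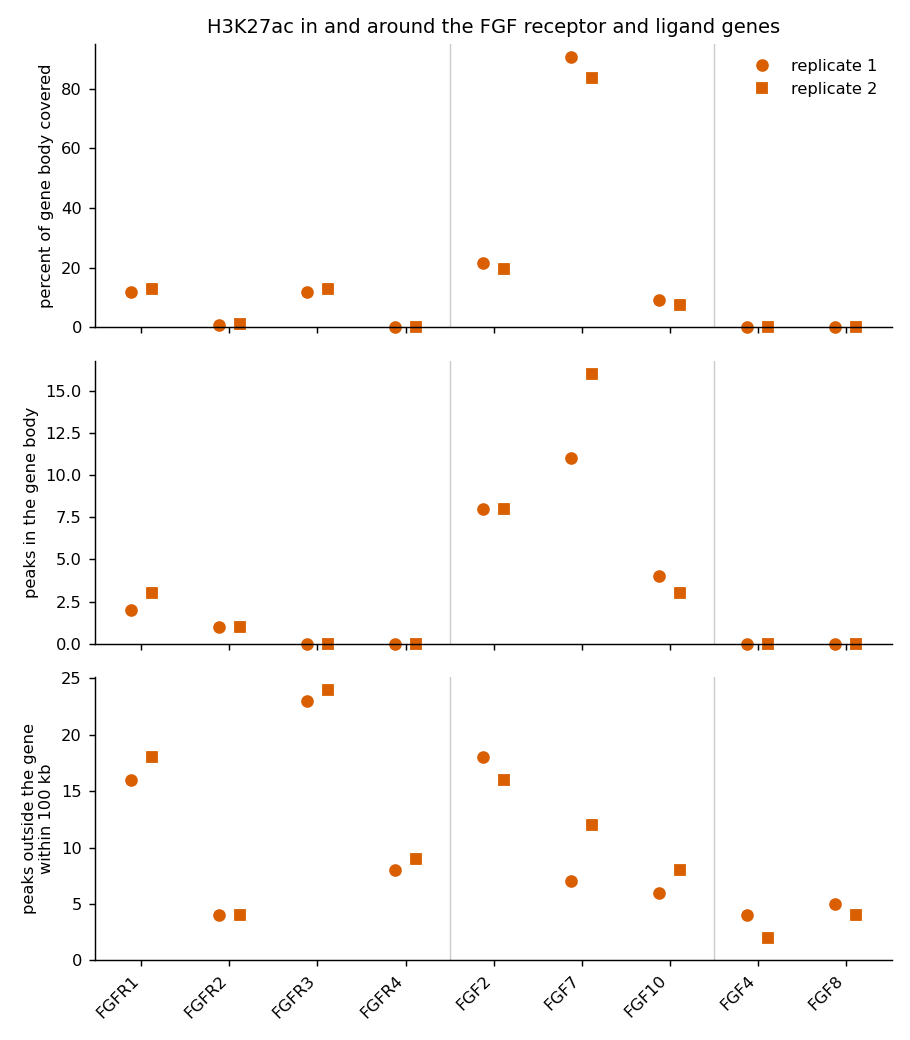
H3K27ac at each gene in replicate 1 (circles) and replicate 2 (squares): percent of the gene body covered by peaks (top), number of peak summits in the gene body beyond 1 kb from the start (middle), and number outside the gene within 100 kb (bottom). FGF7 stood highest in the upper panels, and FGFR3 in the bottom panel.

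The interval between the nearest shared CTCF sites on either side of the start ranged from 15.1 kb at FGFR4 to 500 kb at FGFR2. It was 41.2 kb at FGFR3, 71.4 kb at FGF4, 151 kb at FGF10, 184 kb at FGF8, 212 kb at FGFR1 and 383 kb at FGF7. Around FGF4 the sequences of a flanking pair are shown because their cores pointed towards each other across FGF4. They lay −21.9 kb (chr2:3505154-3505254) and 53.0 kb (chr2:3580112-3580212) from the start, with fold enrichments of 41.8 and 33.5, and of 34.5 and 33.8. Both are given on the plus strand, on which FGF4 lies, with the AGGNGGC core or its reverse complement in capitals.
FGF4 upstream: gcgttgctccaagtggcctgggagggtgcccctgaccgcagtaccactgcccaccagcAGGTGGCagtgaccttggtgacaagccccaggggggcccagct
FGF4 downstream: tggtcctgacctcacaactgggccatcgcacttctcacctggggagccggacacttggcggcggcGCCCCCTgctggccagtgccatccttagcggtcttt

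A weaker site at −18.3 kb, with 13.7 and 15.4, held a core that pointed away from FGF4. Facing cores were not limited to FGF4, since those at −41.9 and −39.3 kb from the FGFR3 start pointed towards the one at 57.1 kb. Whether these sites meet in a loop was not measured here. The AP-1 motif TGANTCA was found on either strand in 10 of 105 windows of 301 bases at shared H3K27ac summits around the 9 genes, or 9.52%, against 11.4% at all such summits and 9.98% of windows 5 kb away.

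Of 17 other FGF ligand genes, 13 had H3K4me3 at the start in both replicates (55.4% of all and 68.9% of protein-coding genes). H3K27ac was at 7 of 17 (50.1% and 60.7%). The H3K4me3 share was thus above both backgrounds and the H3K27ac share below both, and neither difference was tested. FGF11, FGF21 and FGF9 had the highest mean H3K27ac, with fold enrichments of 22.3, 11.8 and 11.2. FGF12, FGF16, FGF18, FGF20 and FGF23 had H3K4me3 in both and H3K27ac in neither replicate. These were 5 of 17, against 6.89% of all and 8.25% of protein-coding genes. The pattern is that of FGFR4, FGF4 and FGF8, so it was not limited to the early ligands. FGF1, FGF11, FGF16, FGF18 and FGF19 had CTCF at the start, 5 of 17 (15.2% and 17.9%).

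Co-receptors and heparan sulfate genes, which shape how FGFs reach their receptors, had H3K4me3 at 16 of 17 (55.4% of all and 68.9% of protein-coding genes) and H3K27ac at 13 of 17 (50.1% and 60.7%). SDC4, NDST1 and HS2ST1 had the highest mean H3K27ac, at 35.2, 33.8 and 30.1. KL and KLB, the klotho co-receptors of endocrine FGFs, and HS6ST2 had H3K4me3 without H3K27ac (6.89% of all and 8.25% of protein-coding genes). CTCF was at 7 of 17 (15.2% and 17.9%).

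Of 16 genes of the signal relay between receptor and nucleus, found from a list of 17, 15 had both histone marks in both replicates (47% of all and 58.9% of protein-coding genes). PIK3CA had neither within 1 kb. The highest mean H3K27ac was 39.5 at MAP2K2, followed by 35.1 at PTPN11. CTCF was at GRB2, MAP2K1 and PIK3R1, 3 of 16 (15.2% and 17.9%).

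Feedback regulators and target genes of the pathway had both histone marks at 15 of 16 starts, all but ETV1 (47% of all and 58.9% of protein-coding genes). DUSP4, a MAP kinase phosphatase, SPRY2, a Sprouty inhibitor, and SPRED1 had the highest mean H3K27ac, at 44.5, 43.8 and 38.5, each above every one of the 9 receptors and ligands. A strongest H3K4me3 peak wider than 5 kb in both replicates occurred at 11 of 16 of these genes and at 1 of 16 relay genes (PIK3R1), against 6.14% of all genes. CTCF was at 6 of 16 (15.2% and 17.9%).

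**Figure D5:**
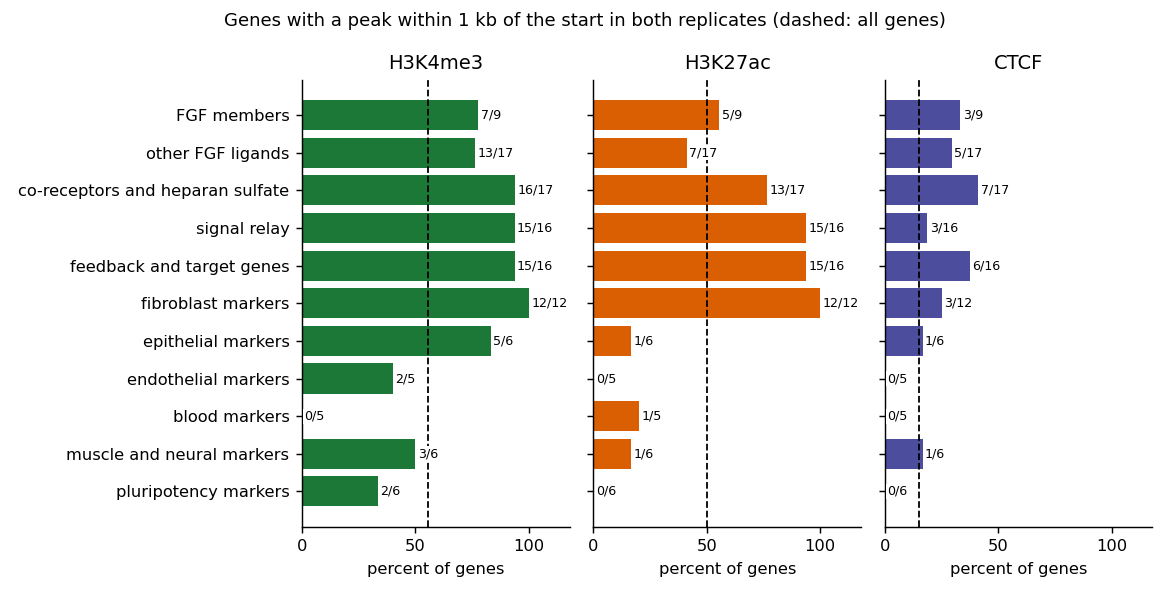
Percent of the genes of each list with H3K4me3, H3K27ac or CTCF within 1 kb of the start in both replicates; bars start at 0, labels give the count over the genes in the annotation, and dashed lines are all 28077 genes. The FGF members, co-receptor and heparan sulfate genes, relay genes, feedback genes and fibroblast markers were above the line for both histone marks. The FGF members were only slightly above it for H3K27ac, and the other FGF ligands were below it for that mark.

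The promoter pattern most like each gene was found by the Euclidean distance of log2(fold enrichment + 1) over the 6 libraries, with genes without a peak at 0. FGF4 was nearest to OCA2, at a distance of 0.013, and FGFR1 to CTR9, at 0.065. FGF2 was nearest to RPL9 at 0.10, FGFR3 to LYRM7 at 0.12, FGF10 to VTN at 0.17 and FGFR4 to KCNIP4 at 0.19. FGFR2, FGF8 and FGF7 had the most distant nearest genes, DOK3 at 0.38, ZBTB16 at 0.40 and NCEH1 at 0.51. Libraries without a peak in either gene add nothing to a distance. FGF7 had a peak in all 6 libraries and FGF4 only in those of H3K4me3, so the distances are not on an equal footing. The FGF10 pattern rests on a single peak, H3K4me3 in replicate 2. The FGFR2 pattern leaves out its main H3K4me3 peaks, of 73.1 and 30.1, which lay beyond 1 kb from the start. At NCEH1 the CTCF fold enrichment was 51.4 and 54.5, beside 25.9 and 28.0 for H3K27ac.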

How the data were processed

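ChIP-seq peaks of H3K4me3, H3K27ac and CTCF in PEFs were analysed in 6 libraries, grouped and numbered by the sample labels. Per the study's methods, the authors mapped reads with Bowtie2 and retained uniquely placed fragments. Picard was then used to discard duplicates, and MACS2 called narrow peaks for each library over its control. The submitters' processing notes name Sscrofa11.1. Every deposited peak has a score, a fold enrichment, which is a ratio to control, and −log10 values of its p-value and its q-value. The score was not used. The stated q-value was 0.01, while the highest deposited q-values were between 0.0432 and 0.0499, and the lists were used as deposited. Peak calling joins adjacent enriched positions, so widths depend on depth and threshold. The 2 input libraries, merged peaks and Hi-C data were not analysed here.

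Positions of peaks on chromosomes 1 to 18 and X were set against RefSeq genes (python 3.11.15, numpy 2.4.6, pandas 2.3.3, matplotlib 3.10.9). A peak was at a start if its interval overlapped 1 kb on either side, and body and flank peaks were counted by summit. If several peaks met a window, the one of highest fold enrichment was used. Shared regions were overlapping peaks of both replicates joined. No filter, pseudocount or test was applied, except log2(fold enrichment + 1) in the likeness of patterns. The counting functions were tested on simulated peaks placed at known positions. Genes named were the 9 members, their overlapping and neighbouring genes, the 3 genes of highest mean H3K27ac in each pathway list, all genes where a count was 5 or fewer, and the nearest gene by pattern; 1 gene that this rule takes from the relay list is not reported here. Members, pathway lists and marker lists were chosen with earlier results of these data known. Alternatives were other q-values, windows, flanks, overlap rules and single replicates.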

Additional observations from a re-analysis of the deposited data

How the results depend on the processing

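No paired analysis was possible because the results come from no test. For 41 results, 144 values were computed under alternatives, of which 130 stayed close to the main value (within 1.5 times for counts, within 1 SD for strength and width) and 14 moved further. A further 28, the H3K4me3 fold enrichments and widths of a single replicate, cannot lie beyond 1 SD of a mean of 2 and are no check. Among them the fold enrichment of FGFR4, 20.1 on average, was 12.3 without replicate 1. Choosing the strongest H3K4me3 peak by q-value also compared nothing for these values, since only 1 peak met the 1 kb window of each gene compared. A 5 kb window met another H3K4me3 peak only at FGF8 in replicate 2. Most of these values could therefore not move, although they count among the 130. Taking the summit instead of the peak interval left H3K4me3 at 5, H3K27ac at 3 and CTCF at 1 of the 9 starts. A 5 kb window gave 5 for CTCF, 8 for CTCF at relay genes and 10 at feedback genes. H3K27ac peaks within 100 kb, summed over genes and averaged over replicates, were 53 for receptors, 33.5 for mesenchymal and 7.5 for early ligands. They were 22, 18 and 2.5 within 50 kb, and 93, 77 and 21 within 250 kb. A −log10 q of at least 5 left 34.5 for receptors. A stricter overlap, in which replicate peaks had to share much of both their lengths, left 20 peaks within 100 kb and 13 body peaks, from 25, for mesenchymal ligands. Counts of either replicate alone stayed within 1.5 times. Depth limits the data: absence of a peak is absence of a call and a domain can be split differently, as at FGF7, with 9 H3K4me3 body peaks in replicate 1 and 4 in replicate 2.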
